A study of Saccharomyces cerevisiae with 16 samples.

Results

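The 37 genes described here are nuclear genes for the mitochondrial respiratory chain and ATP synthase of Saccharomyces cerevisiae. They were chosen by name: 9 genes of complex III, 8 of complex IV, 14 of the ATP synthase with its inhibitor, 4 of complex II and the 2 NADH dehydrogenase genes NDI1 (YML120C) and NDE1 (YMR145C). They are 37 of the 7130 features that the count files list in all. All 37 were measured by RNA-seq at both times and by ribosome profiling at 1 h, and 36 by ribosome profiling at 8 h, where ATP14 (YLR295C) was not listed. All of those passed the filter on low counts.

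Every sample came from the haploid BY4742 strain eIF4E-AID, grown at 30C in YPD, a rich glucose medium. In it the cap-binding protein eIF4E, encoded by CDC33, carries an auxin-inducible degron. The strain was given 500 µM of the auxin indole-3-acetic acid (IAA) for 1 h or 8 h, or the solvent DMSO for the same times. Each assay and time had 2 libraries with IAA and 2 with DMSO, 16 in all in 8 groups. The DMSO groups carry the degron too, and no strain without the degron was analysed here with IAA, so an effect of IAA itself and the loss of eIF4E cannot be told apart. The samples of a group are labelled as biological replicates, but no label says that they came from separate cultures, so the p-values measure only the spread between these samples.

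Counts over features came to 32096327 to 50294053 per RNA-seq library of 1 h and to 10182227 to 15072930 per RNA-seq library of 8 h. Ribosome profiling libraries, which count the mRNA fragments covered by ribosomes (footprints), had 2849721 to 8010138 (1 h) and 1766499 to 9985060 (8 h), and DMSO replicate 1 of 8 h was the shallowest. Single genes of the 37 had between 543 and 30575 RNA counts in a library of 1 h and between 77 and 11779 in one of 8 h, and between 10 and 3484 (1 h) and 14 and 4642 (8 h) footprints. The RNA libraries of 1 h were made from poly(A) RNA and those of 8 h from RNA freed of rRNA, and the footprint libraries of both times differed in ligase, primer and rRNA removal, so time and preparation cannot be told apart. CDC33 mRNA had 584 and 496 CPM (counts scaled to the size of the library) with IAA and 744 and 670.1 with DMSO at 1 h, and 579 and 507 with IAA and 761 and 830.0 with DMSO at 8 h, which is no check of the loss of the protein. The alpha-cell marker SAG1 had 3186 or more RNA counts in every library, and the 4 marker genes deleted in BY4742 had 0 footprints and few RNA counts: at most 3 for URA3 and LYS2, 19 for HIS3 and 37 for LEU2.

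In the respiratory chain electrons from NADH and succinate pass through ubiquinone to complex III, on to cytochrome c and then to oxygen at complex IV, and the proton gradient made on the way drives the ATP synthase. Budding yeast has no proton-pumping complex I: the single-subunit enzymes Ndi1 and Nde1 oxidise NADH on the inner and outer face of the inner membrane, and complex II (succinate dehydrogenase) takes electrons from succinate. On glucose yeast mostly ferments and keeps many of these genes low. The DNA-binding complex of Hap2, Hap3, Hap4 and Hap5 recognises CCAAT and activates many of them when cells respire.

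The upstream sequences are shown because most of the genes share a feature there that the choice by name did not use. The letters CCAAT, on either strand, were in the 250 bases before the start codon of 33 of the 37 genes (89.2%), against 2126 of 6007 coding genes of the R64 reference (35.4%). The longer form ACCAATNA, which contains CCAAT, was there in 15 of the 37 (40.5%), against 260 of the 6007 (4.33%). Complex III had it in 2 of 9 genes, complex IV in 4 of 8, the ATP synthase in 7 of 14, complex II in 0 of 4 and the NADH dehydrogenases in 2 of 2. These letters describe the windows and show no binding. The 30-base windows below are those of the genes with the longer form that passed a test of IAA against DMSO, read 5′ to 3′ on the strand of the gene from the R64 reference, with the motif in capitals (COX6 has it on the opposite strand).
RIP1, chrV:107010-107039, plus strand: ggACCAATCAgcgttttgcgccatttatcg
COX6, chrVIII:209477-209506, plus strand: gaaaagggaccTAATTGGTccggtcaaagc
COX8, chrXII:910149-910178, minus strand: aaacggtttgcACCAATCAtacgagagaag
ATP14, chrXII:722553-722582, minus strand: gccatacacgaACCAATTAtgcatcataaa
ATP15, chrXVI:29934-29963, plus strand: cttttatacgaACCAATGAaatttgatcct
NDI1, chrXIII:30017-30046, minus strand: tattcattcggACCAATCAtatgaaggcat
NDE1, chrXIII:556560-556589, minus strand: tattctggtaaACCAATTAaagagagaaaa
The NDE1 gene has a further match 3 bases before its start codon, and the other 8 genes with the longer form passed no such test. Over all 37 genes, with or without the form, 24 passed at least 1, among them all 4 of complex II, which lack it. A link between the form and a change with IAA was not tested. The 37 genes lie on 13 chromosomes, and none overlaps another gene of the reference.

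Many of the proteins are short. They have 59 to 640 residues, with a median of 153, and 11 have fewer than 100. For 99.37% of genes at 1 h and 99.89% at 8 h the footprint files count over a window 20 codons shorter than the coding sequence with its stop codon, which leaves few codons for the shortest genes: 40 for COX9 (YDL067C) and ATP18 (YML081C-A), 41 for COX7 (YMR256C) and 43 for ATP15 (YPL271W). The coding sequences of COX7 and ATP15 are printed because their values below rest on so short a stretch, and that of QCR9 (YGR183C), which was higher with IAA in footprints at 1 h and in RNA at 8 h, because it is interrupted by an intron, as is that of QCR10 (YHR001W-A). They are read from the R64 reference with introns removed, and the start and stop codons are in capitals.
COX7, chrXIII:778945-779127, minus strand: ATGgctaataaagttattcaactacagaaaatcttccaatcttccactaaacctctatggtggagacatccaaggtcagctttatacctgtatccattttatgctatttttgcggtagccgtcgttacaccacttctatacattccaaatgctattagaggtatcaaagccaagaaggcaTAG
ATP15, chrXVI:30079-30267, plus strand: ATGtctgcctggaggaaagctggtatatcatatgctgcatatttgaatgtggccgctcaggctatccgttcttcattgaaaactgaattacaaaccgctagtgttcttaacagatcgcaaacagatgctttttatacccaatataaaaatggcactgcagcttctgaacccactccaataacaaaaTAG
QCR9, chrVII:859063-859476, minus strand: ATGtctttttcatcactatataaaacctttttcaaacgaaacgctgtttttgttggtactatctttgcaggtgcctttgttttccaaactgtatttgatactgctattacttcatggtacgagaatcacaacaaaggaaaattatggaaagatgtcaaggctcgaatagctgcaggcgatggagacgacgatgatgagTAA
Their GC contents are 38.3%, 40.2% and 37.3%.

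Levels were compared between genes as mean CPM per kilobase, given as IAA then DMSO. The length was that of the coding sequence for RNA and that of the shorter counted window for footprints. Among the complex IV genes the RNA level at 1 h spanned 1.93-fold with IAA (112 to 216 CPM per kb) and 1.55-fold with DMSO (152 to 236). Complex II spanned 9.44-fold and 7.29-fold, and SDH1 (YKL148C), the flavoprotein subunit that oxidises succinate, was lowest at 11.9 and 21.8 CPM per kb against 112 and 159 for SDH3 (YKL141W), a membrane anchor. SDH1 was the lowest of complex II in both assays at both times. In the ATP synthase the inhibitor gene INH1 (YDL181W) was lowest in every assay and time (55.5 and 110.2 CPM per kb in RNA at 1 h). ATP2 (YJR121W), the beta subunit, was highest at 1 h in RNA (419 and 516 CPM per kb), and ATP15, the epsilon subunit, at 8 h in RNA (645 and 604) and in footprints (552 and 808). The summed counts of the 37 genes were 2993 to 5158 CPM in RNA at 1 h, 3226 to 3901 in RNA at 8 h, 2149 to 2234 in footprints at 1 h and 2858 to 3531 in footprints at 8 h.

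**Figure D1:**
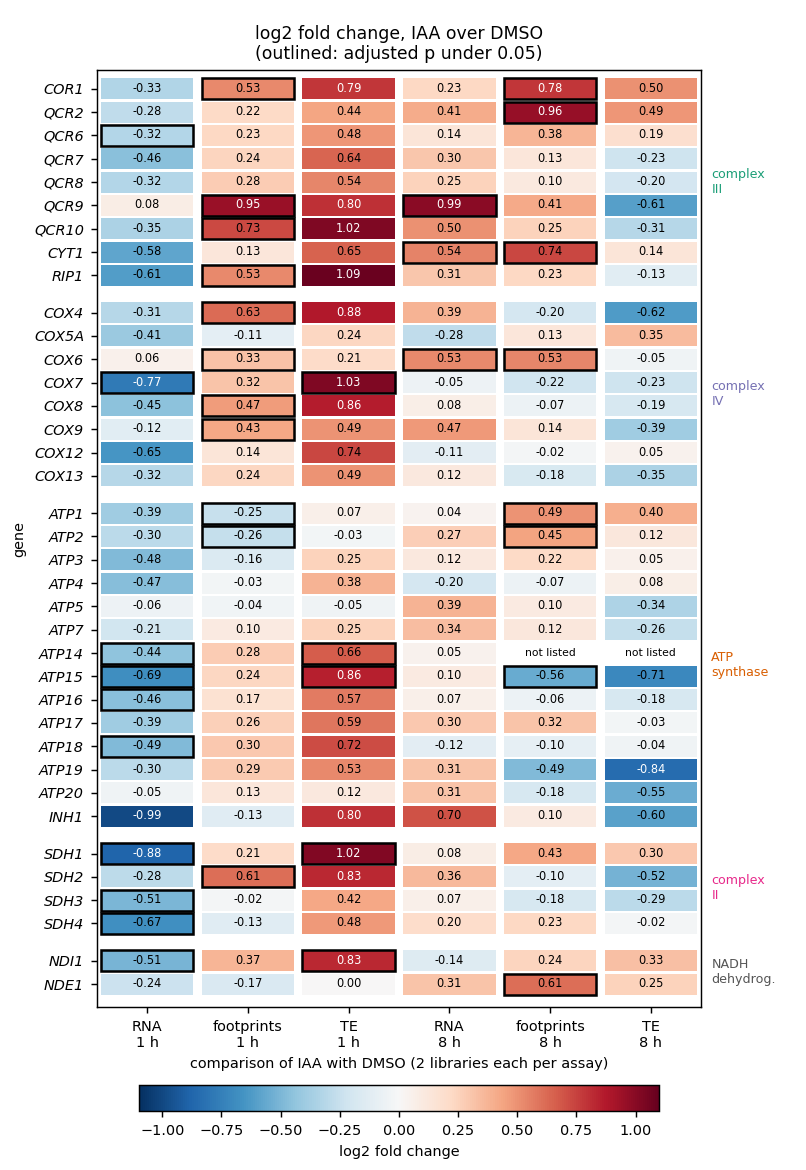
Heat map of the log2 fold change of IAA over DMSO for each of the 37 genes (rows, by complex) in RNA, footprints and translation efficiency (TE) at 1 h and 8 h (columns), from fits with 2 libraries per group. Outlined cells passed an adjusted p under 0.05: 10 in RNA at 1 h, all lower, 11 in footprints at 1 h, 5 in TE at 1 h, 3 in RNA at 8 h, 8 in footprints at 8 h and 0 in TE at 8 h.

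The first comparison asked how mRNA abundance differed after 1 h of IAA. Of the 37 genes 10 fell and 0 rose in edgeR's quasi-likelihood test (adjusted p under 0.05 after Benjamini-Hochberg adjustment over all 6247 features tested). The 10 are 27% of the genes, and 20.9% of all features tested were lower and 21.9% higher. At an unadjusted p under 0.05 there were 15 lower and 0 higher. No such unadjusted count was made over all features, here or below. DESeq2 called 15 lower and 0 higher, against 1428 lower and 1241 higher over all features. The median log2 fold change was -0.39, against 0.01 over all features, and 35 of the 37 values were below 0. With a split at 300 residues, chosen after the values were seen, 8 of the 28 shorter genes were lower and 0 higher. Of all 1930 shorter coding genes 553 were lower and 276 higher, so the share called lower was near that of genes of this size. The medians were -0.40 and -0.13. Of the 9 longer genes 2 were lower, against 731 lower and 939 higher of 3796. In bulk RNA, fewer cells that express a gene and less of its RNA per cell cannot be told apart.

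Complex II stood lowest, with 3 of its 4 genes called. SDH1 had 24.8 and 20.9 CPM with IAA and 48.0 and 36.1 with DMSO, a log2 fold change of -0.88 ± 0.16 (± is the standard error throughout; adjusted p = 0.00759, edgeR). SDH4 (YDR178W), a membrane anchor, had 27.2 and 22.1 CPM with IAA and 40.8 and 37.6 with DMSO (-0.67 ± 0.12). The other anchor, SDH3, had 74.0 and 59.9 CPM with IAA and 103 and 87.5 with DMSO (-0.51 ± 0.12). In all 3 both IAA libraries lay under both DMSO libraries. The iron-sulfur subunit gene SDH2 (YLL041C) did not pass, with 32.9 and 21.7 CPM with IAA and 36.8 and 29.7 with DMSO (-0.28 ± 0.21).

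In the ATP synthase 4 of 14 genes fell, and all 14 values were below 0. ATP15 had 65.3 and 49.995 CPM with IAA and 102 and 83.6 with DMSO (-0.69 ± 0.15, adjusted p = 0.0133, edgeR). ATP16 (YDL004W), the delta subunit of the same central stalk, had 126 and 101 CPM with IAA and 171 and 142 with DMSO (-0.46 ± 0.13). Their groups did not overlap. ATP14, a subunit of the peripheral stalk, had 79.0 and 64.9 CPM with IAA and 107 and 89.0 with DMSO (-0.44 ± 0.13). ATP18, a small membrane subunit, had 62.8 and 47.3 CPM with IAA and 78.3 and 75.9 with DMSO (-0.49 ± 0.13). The catalytic pair did not pass. ATP1 (YBL099W), the alpha subunit, had 532 and 404 CPM with IAA and 643 and 581 with DMSO (-0.39 ± 0.14, adjusted p = 0.0703, edgeR), and ATP2 had 775 and 512 with IAA and 894 and 690.2 with DMSO (-0.30 ± 0.22). The groups of ATP1 did not overlap and those of ATP2 did. The most negative value of all 37, -0.99 ± 0.35 for INH1, missed the threshold (adjusted p = 0.06, edgeR), with 18.9 and 9.72 CPM with IAA and 35.0 and 21.8 with DMSO.

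Complexes III and IV had 1 call each. COX7, a small subunit of complex IV, had 23.3 and 18.9 CPM with IAA and 38.7 and 33.4 with DMSO (-0.77 ± 0.14, adjusted p = 0.00696, edgeR), the smallest adjusted p of the 37. QCR6 (YFR033C), an acidic subunit of complex III, had 178 and 158 CPM with IAA and 224 and 197 with DMSO (-0.32 ± 0.10). COR1 (YBL045C), a core subunit of complex III, did not pass, with 198 and 127 CPM with IAA and 241 and 168 with DMSO (-0.33 ± 0.24), nor did COX4 (YGL187C) of complex IV, with 73.4 and 41.6 CPM with IAA and 87.4 and 55.3 with DMSO (-0.31 ± 0.30). Of the NADH dehydrogenases NDI1 fell, with 30.8 and 24.04 CPM with IAA and 42.3 and 36.0 with DMSO (-0.51 ± 0.15). NDE1 had 276 and 152 CPM with IAA and 299 and 205 with DMSO (-0.24 ± 0.29), so that its groups overlapped. The only values above 0 were 0.08 for QCR9 and 0.06 for COX6 (YHR051W), neither called.

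The libraries of a group differed across these genes. All 37 were higher in replicate 1 than in replicate 2 in RNA at 1 h, by a median of 1.39-fold with IAA and 1.28-fold with DMSO. The median of the 37 was -0.57 without DMSO replicate 2, -0.70 without IAA replicate 1, -0.20 without IAA replicate 2 and -0.23 without DMSO replicate 1. Over all features it lay between -0.01 and 0.02 in these fits. QCR6 lost its call without DMSO replicate 1 and without IAA replicate 2, and ATP14, ATP16 and NDI1 lost theirs without IAA replicate 2, where ATP18 moved to -0.30. With libraries scaled by total counts, which moved the median of all features to 0.23, 4 genes fell (COX7, ATP15, SDH1 and SDH4), 5 values were above 0, and 35 of the 37 still lay under the median of all features. Both IAA libraries lay under both DMSO libraries in 19 of the 37 genes and above them in 0. Over all features tested 36.6% lay under and 38.6% above.

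**Figure D2:**
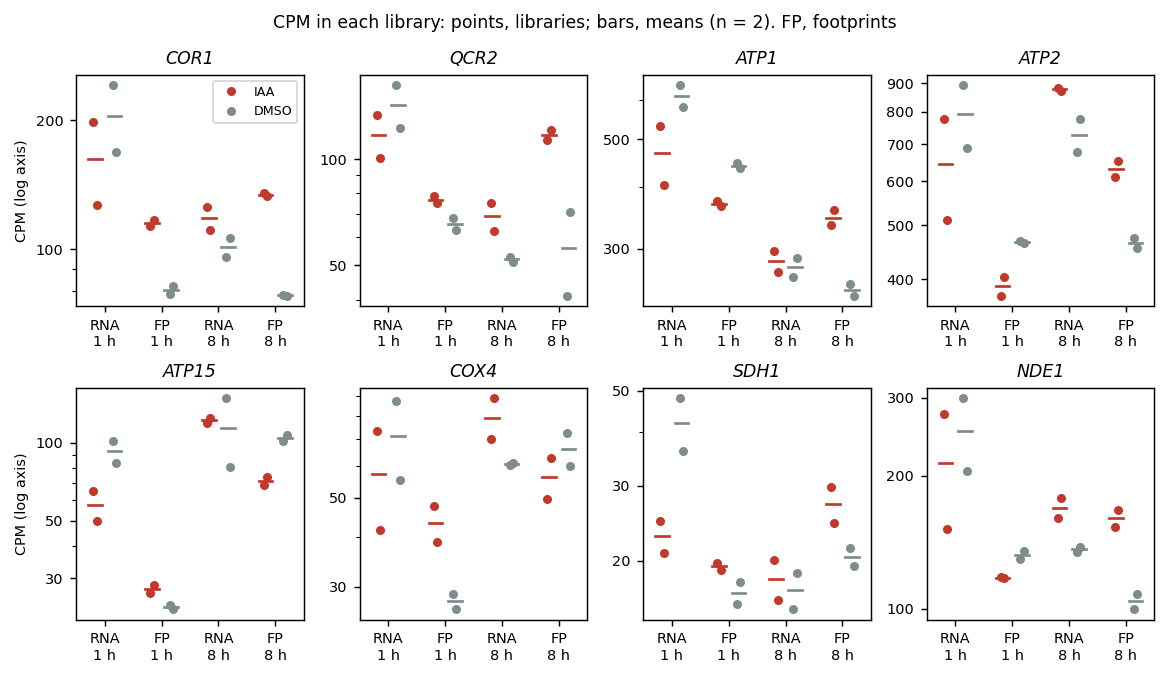
CPM on a log axis in each library for 8 of the genes, in RNA and footprints (FP) at 1 h and 8 h, with IAA in red at the left and DMSO in grey at the right of each pair; points are libraries and bars are means of 2. At 8 h the footprint libraries with IAA lie above those with DMSO for COR1, QCR2, ATP1, ATP2 and NDE1 and below them for ATP15.

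The comparison of footprints after 1 h asked how the share of footprints from each gene differed with IAA. Values are scaled to each library, so a change in the total amount of translation does not show in them. Of the 37 genes 9 rose (24.3%, against 11.1% of all 5169 features tested) and 2 fell (5.41%, against 14.9%). The 9 were spread over complex III (4 of 9), complex IV (4 of 8) and complex II (1 of 4), and both that fell were the catalytic subunits of the ATP synthase. The median log2 fold change was 0.24, against 0.01 over all features, and 27 of the 37 values were above 0. With total-count scaling, which moved the median of all features to 0.19, 35 values were above 0 and 27 above that median.

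In complex III all 9 values were above 0. COR1 had 113 and 117 CPM with IAA and 78.5 and 81.8 with DMSO, a log2 fold change of 0.53 ± 0.08 (adjusted p = 1.14e-06, edgeR). QCR9, a small subunit, had 12.9 and 13.4 CPM with IAA and 7.52 and 5.90 with DMSO (0.95 ± 0.22), the largest rise. QCR10, another small subunit, had 21.1 and 14.7 CPM with IAA and 10.9 and 10.2 with DMSO (0.73 ± 0.19). RIP1 (YEL024W), the Rieske iron-sulfur protein, had 37.6 and 27.0 CPM with IAA and 23.4 and 20.3 with DMSO (0.53 ± 0.14). In these 4 genes both IAA libraries lay above both DMSO libraries.

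In complex IV COX4 had 47.8 and 38.8 CPM with IAA and 28.9 and 26.4 with DMSO (0.63 ± 0.12, adjusted p = 0.000138, edgeR). COX8 (YLR395C) had 29.7 and 26.5 CPM with IAA and 18.5 and 22.0 with DMSO (0.47 ± 0.14). COX9 had 30.7 and 28.3 CPM with IAA and 24.2 and 19.0 with DMSO (0.43 ± 0.14). All 3 code for structural subunits around the mitochondrially encoded core, as does COX6, which had 41.9 and 42.7 CPM with IAA and 36.0 and 31.2 with DMSO (0.33 ± 0.12). SDH2 of complex II had 12.2 and 16.5 CPM with IAA and 9.54 and 9.51 with DMSO (0.61 ± 0.20), while SDH1 was not called, with 19.8 and 19.0 CPM with IAA and 15.9 and 17.9 with DMSO (0.21 ± 0.16). Again no groups of the called genes overlapped.

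The ATP synthase had no gene called higher, and 8 of its 14 values were above 0. ATP1 had 375 and 366 CPM with IAA and 447 and 437 with DMSO (-0.25 ± 0.06, adjusted p = 0.000677, edgeR). ATP2 had 373 and 404 CPM with IAA and 468 and 465 with DMSO (-0.26 ± 0.06). These 2 genes had the most footprints of the 37. The summed footprints of the ATP synthase were 1302 and 1329 CPM with IAA, against 1467 and 1409.6 with DMSO. Complex III summed to 383 and 353 CPM with IAA and 285 and 275 with DMSO, and complex IV to 306 and 270.1 with IAA and 242 and 222 with DMSO. NDI1 had 32.3 and 23.9 CPM with IAA and 20.8 and 22.0 with DMSO (0.37 ± 0.15, adjusted p = 0.0552, edgeR), and NDE1 118 and 117 with IAA and 129 and 135 with DMSO (-0.17 ± 0.07, adjusted p = 0.0747, edgeR). Neither passed.

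The calls of COR1, QCR9 and COX4 held in all 10 refits, although COR1 lay under a minimum absolute log2 fold change of 0.58, and those of ATP1 and ATP2 in all that left out a library, but both were lost with total-count scaling (-0.07 and -0.08), and that of ATP1 with all 8 footprint libraries in a single fit. The number higher was 3 with DESeq2 and 22 with total-count scaling, and without a library 5 (IAA replicate 1), 7 (IAA replicate 2), 7 (DMSO replicate 2) and 12 (DMSO replicate 1). Without IAA replicate 1 the calls of QCR10 (0.47), RIP1 (0.30), COX6, COX8 and COX9 were lost, without IAA replicate 2 those of COX6, COX9 and SDH2 (0.36), without DMSO replicate 1 those of COX8 and SDH2, and without DMSO replicate 2 those of COX6 and COX9 (0.28). Both IAA libraries lay above both DMSO libraries in 23 genes and under them in 4. Over all features tested 31.3% lay above and 30.2% under.

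**Figure D3:**
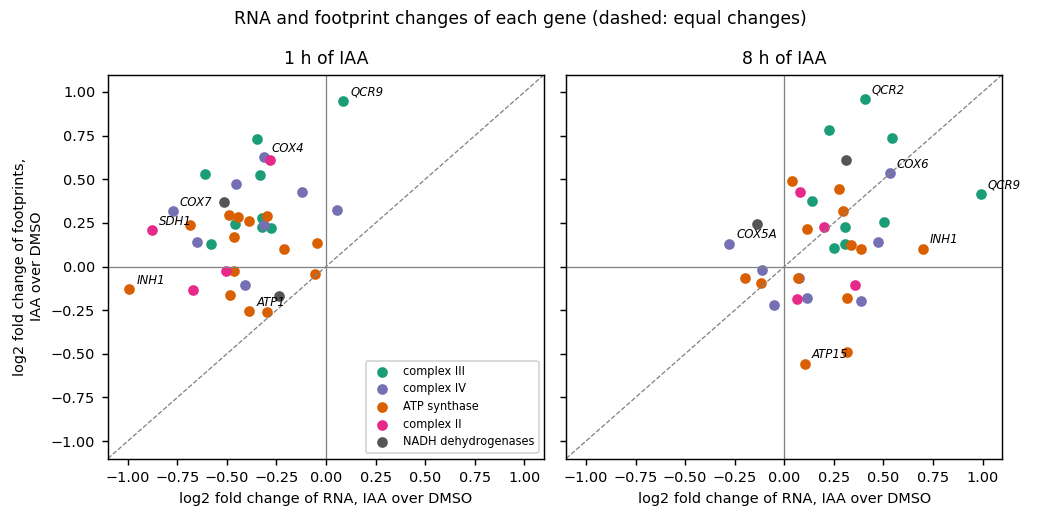
Log2 fold change of footprints (y axis) against that of RNA (x axis), IAA over DMSO, for 37 genes at 1 h (left) and 36 at 8 h (right), coloured by complex; the dashed line marks equal changes. At 1 h 25 genes have a negative RNA value and a positive footprint value, while at 8 h most lie to the right of 0.

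RNA and footprints at 1 h thus pointed apart for most of the genes: 25 of the 37 had an RNA value below 0 and a footprint value above 0. No gene passed the test both ways, since the 10 called lower in RNA were not called in footprints. Translation efficiency (TE), the footprint change beyond the RNA change, tests the gap itself in a model over both assays. At 1 h 5 genes were higher in TE (13.5%, against 9.88% of the 6055 features tested) and 0 lower (10.4% of all features). At an unadjusted p under 0.05 there were 17 higher and 0 lower, with no such count over all features to set beside them. DESeq2 called 10 higher and 0 lower, against 607 higher and 684 lower over all features. The median was 0.57, against -0.01 over all features, and 35 of the 37 values were above 0. Of the 28 genes under 300 residues 3 were higher and 0 lower, with a median of 0.58. Of all 1916 coding genes of that size 268 were higher and 73 lower, with a median of 0.11, so the share called higher did not exceed theirs. Of the 9 longer genes 2 were higher and 0 lower, against 324 higher and 552 lower of 3840.

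All 5 genes higher in TE were also lower in RNA. Both tests use the same RNA libraries, and a lower RNA value raises TE by construction, so the overlap is no separate result. COX7 had a TE change of 1.03 ± 0.21 (adjusted p = 0.00769, edgeR), with 31.0 and 25.7 footprint CPM with IAA and 21.8 and 23.5 with DMSO, beside the fall in RNA given above. SDH1 had 1.02 ± 0.25 and NDI1 0.83 ± 0.24. ATP15 had 0.86 ± 0.23, with 26.4 and 28.3 footprint CPM with IAA and 23.6 and 22.8 with DMSO. ATP14 had 0.66 ± 0.19, with 42.5 and 40.6 footprint CPM with IAA and 36.4 and 31.5 with DMSO. In these genes the RNA share fell while the footprint share was not called changed. ATP1 and ATP2, at 0.07 ± 0.17 and -0.03 ± 0.24, had no called TE change, and neither did NDE1 (0.00 ± 0.34), COR1 (0.79 ± 0.29, adjusted p = 0.0759, edgeR) or COX4 (0.88 ± 0.42).

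Leaving out single libraries moved these calls. Without footprint IAA replicate 1 0 genes were called, without footprint DMSO replicate 1 COX7 alone, without footprint DMSO replicate 2 COX7 and SDH1, and without footprint IAA replicate 2 COX7 and NDI1. Without RNA replicate 1 of IAA or replicate 2 of DMSO the medians were 0.83 and 0.75. Without RNA DMSO replicate 1 or IAA replicate 2 they were 0.44 and 0.40, and the median stayed between 0.40 and 0.83 in all 8.

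After 8 h of IAA the RNA values leaned the other way. Of the 37 genes 3 rose (8.11%, against 9.03% of 6100 features tested, so a share near that of all features) and 0 fell (8.61% of all features). At an unadjusted p under 0.05 there were 13 higher and 0 lower, with no such count over all features to set beside them. DESeq2 called 2 higher and 0 lower, against 415 higher and 563 lower over all features. The median was 0.25, against 0.01 over all features, and 31 of 37 values were above 0, all 9 of complex III among them. QCR9 had 53.2 and 61.4 CPM with IAA and 32.1 and 25.8 with DMSO (0.99 ± 0.14, adjusted p = 0.00636, edgeR). COX6 had 91.3 and 108 CPM with IAA and 75.2 and 62.9 with DMSO (0.53 ± 0.13). CYT1 (YOR065W), cytochrome c1 of complex III, had 37.1 and 47.3 CPM with IAA and 26.5 and 31.2 with DMSO (0.54 ± 0.15, adjusted p = 0.0493, edgeR). In all 3 the groups did not overlap.

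Of the genes named throughout, none of the others passed in RNA at 8 h. COR1 had 125 and 111 CPM with IAA and 95.8 and 106 with DMSO (0.23 ± 0.11). COX4 had 70.0 and 88.6 CPM with IAA and 60.3 and 61.1 with DMSO (0.39 ± 0.13). ATP2 had 884 and 873 CPM with IAA and 678 and 776 with DMSO (0.27 ± 0.14). In these 3 genes the groups did not overlap although the test was not passed. NDE1 was the same in that respect, with 159.9 and 178 CPM with IAA and 135 and 138 with DMSO (0.31 ± 0.10, adjusted p = 0.0737, edgeR). The other 3 overlapped: ATP1 had 297 and 269.9 CPM with IAA and 264 and 288.2 with DMSO (0.04 ± 0.12), SDH1 20.1 and 16.2 with IAA and 15.4 and 18.8 with DMSO (0.08 ± 0.17), and NDI1 34.4 and 26.9 with IAA and 35.8 and 31.9 with DMSO (-0.14 ± 0.15). Both IAA libraries lay above both DMSO libraries in 20 genes and under them in 2. Over all features tested 32.5% lay above and 30.3% under.

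QCR9 was called in all 10 refits and CYT1 in 3 of the 10. Without IAA replicate 1 or 2 QCR9 alone was called, without DMSO replicate 1 8 genes were, without CYT1, and without DMSO replicate 2 3 genes were, COX6 not among them. The count was 6 with total-count scaling and 1 with all 8 RNA libraries in a single fit.

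Footprints at 8 h gave 7 genes higher (19.4% of 36, against 11.1% of 5012 features tested) and 1 lower (2.78%, against 13%). The median was 0.13, against 0.01 over all features, and 23 of 36 values were above 0. With total-count scaling, which moved the median of all features to 0.27, 34 values were above 0 and 23 above that median. The genes that rose were the complex III core pair, cytochrome c1, the catalytic pair of the ATP synthase, NDE1 and COX6.

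QCR2 (YPR191W), the other core subunit of complex III, had 113 and 121 CPM with IAA and 41.0 and 70.8 with DMSO, a log2 fold change of 0.96 ± 0.16 (adjusted p = 1.27e-05, edgeR). Its DMSO libraries were far apart, and the lower value rests on 65 footprints in the shallow replicate 1. Without DMSO replicate 2 the log2 fold change was therefore larger, at 1.49. COR1 had 135 and 133 CPM with IAA and 78.2 and 77.7 with DMSO (0.78 ± 0.14), with close duplicates. CYT1 had 48.2 and 50.1 CPM with IAA and 28.4 and 30.0 with DMSO (0.74 ± 0.20). All 9 complex III values were above 0, and the complex summed to 548 and 583 CPM with IAA and 372 and 414 with DMSO.

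NDE1 had 153 and 167 CPM with IAA and 99.7 and 108 with DMSO (0.61 ± 0.14, adjusted p = 0.00061, edgeR). ATP1 had 335 and 359 CPM with IAA and 255 and 241 with DMSO (0.49 ± 0.12). ATP2 had 611 and 654 CPM with IAA and 475 and 456 with DMSO (0.45 ± 0.12). The IAA libraries of these 3 lay above their DMSO libraries, the opposite order to that at 1 h. COX6 had 77.5 and 81.3 CPM with IAA and 57.4 and 53.4 with DMSO (0.53 ± 0.16), while the other 7 genes of complex IV lay between -0.22 and 0.14 and were not called. COX4 was among them, with 49.7 and 63.0 CPM with IAA and 72.6 and 59.97 with DMSO (-0.20 ± 0.17).

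The gene that fell was ATP15, with 68.5 and 73.8 CPM with IAA and 102 and 107 with DMSO (-0.56 ± 0.15, adjusted p = 0.00443, edgeR). Its RNA at 8 h was not called, with 119 and 124 CPM with IAA and 148 and 80.3 with DMSO (0.10 ± 0.24), and its DMSO libraries spanned the IAA ones. It thus parted from ATP1 and ATP2, which belong to the same F1 part of the enzyme. ATP15 has 62 residues, and ATP1 and ATP2 have 545 and 511. Of all 1559 coding genes under 300 residues 437 were lower and 40 higher here, and of the 3442 longer ones 211 were lower and 514 higher. The part of length in this split was not tested. SDH1 had 29.7 and 24.5 footprint CPM with IAA and 21.5 and 19.4 with DMSO (0.43 ± 0.24), and NDI1 43.7 and 33.1 with IAA and 35.3 and 30.7 with DMSO (0.24 ± 0.21). Neither passed, and only the groups of SDH1 did not overlap. Both IAA libraries lay above both DMSO libraries in 15 of 36 genes and under them in 4. Over all features tested 31% lay above and 30.2% under.

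COR1, QCR2 and NDE1 were called in all 10 refits. The calls of COX6, ATP1 and ATP2 were lost without DMSO replicate 2, where the median was 0.14. Those of COX6 and ATP15 were lost without IAA replicate 1 (median 0.16), and those of CYT1 and COX6 without IAA replicate 2 (median 0.04). With total-count scaling 13 were higher and 0 lower, and ATP15 had -0.29, not called.

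**Figure D4:**
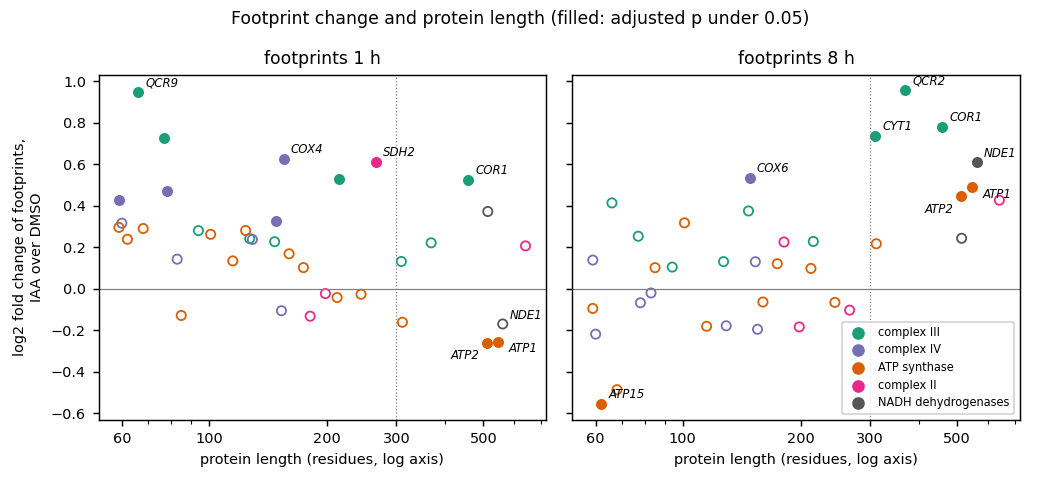
Log2 fold change of footprints, IAA over DMSO, against protein length in residues (log axis) for 37 genes at 1 h (left) and 36 at 8 h (right), coloured by complex; filled points passed an adjusted p under 0.05 and the dotted line marks 300 residues. At 8 h all 9 genes of 300 residues or more lie above 0, and ATP15 (62 residues) has the lowest value, -0.56.

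The footprint changes followed protein length in opposite directions at the 2 times. At 8 h Pearson's r with the log2 of length was 0.60 and Spearman's rho 0.53 over the 36 genes, which share libraries and are no independent replicates. Over all 5001 coding genes tested they were 0.39 and 0.46. At 1 h they were -0.40 and -0.43 over the 37 genes and -0.09 and -0.08 over all 5133. With a split at 300 residues, chosen after the values were seen, all 9 longer genes were above 0 at 8 h, with a median of 0.49, and 6 were called higher, while SDH1, the longest of the 37, NDI1 and ATP3 (YBR039W), the gamma subunit of the ATP synthase, were not called. Of all 3442 longer coding genes 61.4% were above 0, with a median of 0.12, and 514 were called higher and 211 lower. Of the 27 shorter genes 14 were above 0, with a median of 0.10, against 27.1% and -0.27 for all shorter coding genes. In RNA at 8 h r was -0.14 and rho -0.08 over the 37 genes. The preparation of the footprint libraries differed between the times, and its part in this pattern was not tested.

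TE at 8 h had 0 genes called in either direction in edgeR, against 3.45% of 5442 features higher and 2.02% lower. At an unadjusted p under 0.05 there were 2 higher and 4 lower, with no such count over all features to set beside them. DESeq2 called 0, against 222 higher and 101 lower over all features. The median was -0.15, against -0.02 over all features, and values ran from -0.84 for ATP19 (YOL077W-A) to 0.50 for COR1. Pearson's r with the log2 of length was 0.68 over the 36 genes and 0.27 over all coding genes. With the split at 300 residues the medians were 0.30 for the 9 longer genes and -0.23 for the 27 shorter ones. Over all coding genes they were 0.09 and -0.23. Of the genes named throughout, COR1 had 0.50 ± 0.17 (adjusted p = 0.0902, edgeR), ATP1 0.40 ± 0.17, NDI1 0.33 ± 0.26, SDH1 0.30 ± 0.29, NDE1 0.25 ± 0.17, ATP2 0.12 ± 0.17 and COX4 -0.62 ± 0.22. In the fits without a library the median ran from -0.26 to 0.03, and in some of them single genes passed the threshold.

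The effect of IAA at 8 h minus that at 1 h was then tested for each assay, as the interaction of treatment and time. In RNA all 37 differences were above 0, with a median of 0.56 against -0.02 over all features, and 29 genes had a value below 0 at 1 h and above 0 at 8 h. A single gene, SDH4, passed, with 0.86 ± 0.17 (adjusted p = 0.0459, edgeR; 2.7%, against 0.946% of 6451 features higher). Its RNA at 8 h had 65.8 and 65.5 CPM with IAA and 61.3 and 53.0 with DMSO (0.20 ± 0.11). The call was lost in 7 of the 8 fits without a library, without IAA replicate 1 at 1 h being the exception, and with total-count scaling, where 36 differences were above 0 and the median of all features moved to -0.18.

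In footprints 4 genes had a higher effect at 8 h than at 1 h (11.1%, against 8.05% of 5034 features) and 2 a lower one (5.56%, against 4.89%). NDE1 had a difference of 0.79 ± 0.14 (adjusted p = 0.000587, edgeR), ATP1 0.76 ± 0.12 and ATP2 0.72 ± 0.12, and these 3 were called in all 13 refits. For the catalytic ATP synthase genes the effect was thus called lower at 1 h, called higher at 8 h and called different between them. QCR2 had 0.71 ± 0.20, and 1.29 without DMSO replicate 2 of 8 h. COX4 had -0.80 ± 0.22, and ATP15 -0.78 ± 0.19. The 4 genes with a higher effect have 300 residues or more, and the 2 with a lower one have fewer. Of all 3458 longer coding genes 395 were higher and 49 lower in this test, and of the 1564 shorter ones 10 were higher and 196 lower.

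Left-out libraries mattered more for QCR2, COX4 and ATP15. The call of QCR2 was lost without either IAA library of 8 h, either IAA library of 1 h or DMSO replicate 1 of 1 h, that of COX4 without IAA replicate 1 of either time or DMSO replicate 2 of 1 h, and that of ATP15 without IAA replicate 2 or DMSO replicate 2 of 1 h, which left 0 lower genes in the last case. The difference in TE between the times was called for ATP15 alone, at -1.60 ± 0.43 (adjusted p = 0.0462, edgeR; 2.78%, against 1.64% of 5484 features lower and 1.51% higher). It was not called in 12 of the 16 fits without a library, and the exceptions were RNA DMSO replicate 1 and IAA replicate 1 of 8 h and RNA DMSO replicate 2 and IAA replicate 1 of 1 h. Across those 16 fits the median of the genes ran from -0.93 to -0.52. The median over 36 genes was -0.72, against -0.03 over all features, with 31 values below 0. It was -0.23 for the 9 genes of 300 residues or more and -0.80 for the 27 shorter ones, against 0.12 and -0.41 over all coding genes.

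Across the 6 comparisons of IAA with DMSO 24 of the 37 genes were called at least once and 11 at least 2 times. COX6 was called higher in 3 of them, footprints at 1 h, RNA at 8 h and footprints at 8 h. The 13 never called were QCR7 (YDR529C), QCR8 (YJL166W), COX5A (YNL052W), COX12 (YLR038C), COX13 (YGL191W), ATP3, ATP4 (YPL078C), ATP5 (YDR298C), ATP7 (YKL016C), ATP17 (YDR377W), ATP19, ATP20 (YPR020W) and INH1. ATP4, ATP5 and ATP7 of the peripheral stalk are among them, but ATP14 of that stalk was called lower in RNA and higher in TE at 1 h. The values of the 13 ran from -0.99 to -0.05 in RNA at 1 h, -0.16 to 0.29 in footprints at 1 h, -0.28 to 0.70 in RNA at 8 h and -0.49 to 0.32 in footprints at 8 h. COX12 came nearest to a call, at an adjusted p of 0.052 in edgeR's test of RNA at 1 h.

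Genes around the chain were read from lists set with the same knowledge of earlier results. CYC1 (YJR048W), the main cytochrome c, which carries electrons from complex III to IV, lay lower in RNA at 1 h than any of the 37. There it had 18.2 and 11.9 CPM with IAA and 50.3 and 38.3 with DMSO (-1.56 ± 0.22, adjusted p = 0.00348, edgeR), and at 8 h 14.4 and 18.5 with IAA and 42.9 and 38.1 with DMSO (-1.30 ± 0.16). Its footprints were not called at 1 h, with 24.4 and 26.8 CPM with IAA and 25.8 and 27.2 with DMSO (-0.04 ± 0.14), and fell at 8 h, with 13.3 and 19.2 with IAA and 47.3 and 47.0 with DMSO (-1.52 ± 0.22). At 8 h its direction was therefore the reverse of that of CYT1, which hands it electrons. COX5B (YIL111W), the hypoxic isoform of COX5A, had 16.2 and 11.97 footprint CPM with IAA and 27.8 and 23.9 with DMSO at 8 h (-0.85 ± 0.27). CYC7 (YEL039C), the minor cytochrome c, was low in RNA at 1 h, with 0.634 and 0.537 CPM with IAA and 0.679 and 2.00 with DMSO, and was not called. NDE2 (YDL085W), the paralog of NDE1, had 2.76 and 3.40 CPM with IAA and 1.63 and 2.05 with DMSO there (0.74 ± 0.24, adjusted p = 0.0493, edgeR).

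HAP4 (YKL109W), the activating subunit of the CCAAT-binding complex, changed in RNA in the direction of the median of the 37 at each time. It had 19.6 and 13.7 CPM with IAA and 30.7 and 33.5 with DMSO at 1 h (-0.95 ± 0.18), and 30.3 and 28.1 with IAA and 15.0 and 18.2 with DMSO at 8 h (0.81 ± 0.15). The difference between the times was 1.74 ± 0.26 (adjusted p = 0.0158, edgeR). Its footprints at 1 h were not called, with 6.92 and 6.69 CPM with IAA and 8.06 and 5.74 with DMSO (-0.04 ± 0.26). Of the 5 HAP regulators on the list 2 rose and only HAP4 fell in RNA at 1 h. HAP2 (YGL237C), of the same complex, had 31.4 and 30.3 CPM with IAA and 22.4 and 18.3 with DMSO (0.60 ± 0.12). HAP1 (YLR256W), a separate haem-responsive activator, had 325 and 313 CPM with IAA and 229 and 235 with DMSO (0.46 ± 0.07). HAP3 (YBL021C), at -0.36 ± 0.13, and HAP5 (YOR358W), at 0.22 ± 0.11, were not called at 1 h. In RNA at 8 h 2 of the 5 rose and 0 fell, and 3 values were above 0, in a range of -0.31 to 0.81. There HAP2 had 30.3 and 35.7 CPM with IAA and 24.3 and 21.7 with DMSO. HAP3 had 8.88 and 10.1 with IAA and 12.4 and 10.1 with DMSO, and HAP5 6.99 and 9.72 with IAA and 12.7 and 8.17 with DMSO. Of the 33 assembly factors of the complexes, 14 fell and 2 rose in RNA at 1 h (median -0.30), where 20.9% of all features fell and 21.9% rose, and 11 of 33 fell and 0 rose in footprints at 8 h (median -0.37), where 13% fell and 11.1% rose. In RNA at 8 h 3 fell and 1 rose, and in footprints at 1 h 1 fell and 1 rose of 32 tested. The 11 translation activators of mitochondrial mRNAs had 3 higher and 2 lower in RNA at 1 h (21.9% and 20.9% of all features). They had 2 higher and 0 lower in footprints at 1 h (11.1% and 14.9% of all features). In RNA at 8 h they had 3 higher and 0 lower, where 9.03% of all features rose and 8.61% fell. The 6 mitochondrial carriers had 2 higher and 2 lower in RNA at 1 h and 1 higher and 1 lower in RNA at 8 h, beside the same shares of all features. Of the 7 mitochondrially encoded subunits 6 rose in RNA at 8 h (median 1.35), and COB, the cytochrome b of complex III, had 844 and 1089.8 CPM with IAA and 349.5 and 284 with DMSO (1.61 ± 0.18). In the poly(A) RNA of 1 h COB had at most 1.09 CPM. None of the 7 could be tested in footprints: each had at most 8 footprints in a library of 1 h, and the files of 8 h do not list them.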

How the data were processed

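RNA-seq and ribosome profiling were measured in the eIF4E-AID strain with IAA or DMSO for 1 h or 8 h, in 2 libraries per group. The authors deposited raw counts of reads or footprints per feature for each library. Per the submitters' processing notes, reads were trimmed with cutadapt and aligned with STAR (builds R64 and sacCer3), while the counting tool and whether it used strand were not given in the sources used here. The library kit keeps strand. The files' summary lines that name no gene, 21.7 to 31.2% of RNA reads, were left out. Footprints were counted over coding sequences that leave out 20 codons of each, per the lengths in the deposited count files. Each gene's ID and position were read from the R64 reference of RefSeq, and all 37 symbols matched it.

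Counts were tested with edgeR 4.0.16 (R 4.3.3, limma 3.58.1) by its quasi-likelihood F test, after its default filter on low counts and TMM scaling. Groups came from the labels. IAA was compared with DMSO within an assay and time (4 libraries), TE as the interaction of treatment and assay within a time (8 libraries), and differences between times as interactions with time (8 or, for TE, 16 libraries). A call was an adjusted p under 0.05 (Benjamini-Hochberg over all features tested). CPM used library sizes after TMM scaling. The scripts were tested on simulated data.

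Values in every library are given for the genes called in a comparison (at most 4 per complex, by smallest adjusted p) and always for ATP1, ATP2, COR1, COX4, SDH1, NDI1 and NDE1, and, in at least 1 comparison, for the related genes CYC1, CYC7, COX5B, NDE2, HAP4, HAP1 and CDC33 and up to 3 called genes of a list. SDH2 and INH1 in RNA at 1 h, QCR9, COX6 and COX12 in RNA at 1 h, and ATP19 in TE at 8 h were named after their values were seen. The genes and lists were chosen with earlier results of these data known. Alternatives were DESeq2 1.42.0, its size factors, total-count scaling, no filter, all 8 libraries of an assay, a replicate block, a minimum absolute log2 fold change of 0.58 and leaving out each library. Figures were drawn with matplotlib 3.10.9 in Python 3.11.15.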

Additional observations from a re-analysis of the deposited data

Results flagged for a closer look

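Each of these genes had an effect of IAA that differed between 8 h and 1 h in the interaction term of edgeR's quasi-likelihood test (adjusted p under 0.05, 2 libraries per group). Library preparation differed between the times, so the difference cannot be told apart from it.

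In footprints the effect at 8 h minus that at 1 h was 0.79 for NDE1, 0.76 for ATP1, 0.72 for ATP2 and 0.71 for QCR2. It was -0.80 for COX4 and -0.78 for ATP15. In RNA it was 0.86 for SDH4. In TE it was -1.60 for ATP15.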

How the results depend on the processing

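No called value turned its direction under the alternatives run. With DESeq2 the counts were 3 higher in footprints at 1 h, 10 higher in TE at 1 h, 4 higher in the RNA difference between times and 3 lower in the TE difference. Over all features DESeq2 called 160, 607, 157 and 142 in the same order. Without the low-count filter 10 were higher in TE at 1 h, against 635 over all features. With total-count scaling they were 4 lower in RNA at 1 h, 22 higher and 0 lower in footprints at 1 h, 10 higher in TE at 1 h, 6 higher in RNA at 8 h, 13 higher and 0 lower in footprints at 8 h, 1 higher in TE at 8 h, and 0 in the RNA and TE differences between times. Over all features it called 1588 higher in footprints at 1 h and 1312 at 8 h, against 575 and 554 with TMM. That scaling turned the sign of 11 of the 36 footprint values at 8 h, 8 of the 37 at 1 h, 4 TE values at 8 h and 3 RNA values at 1 h. With 1 fit over both times (8 libraries) there were 4 higher and 1 lower in footprints at 1 h and 1 higher in RNA at 8 h. A minimum absolute log2 fold change of 0.58 left 4 lower in RNA at 1 h, 4 higher and 0 lower in footprints at 1 h, 1 higher in RNA at 8 h, and 4 higher and 0 lower in footprints at 8 h.

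The labels give the groups the same replicate numbers. The differences of replicate 1 minus 2 correlated between IAA and DMSO across genes with r = 0.60 in RNA at 1 h, 0.34 in RNA at 8 h, 0.03 in footprints at 1 h and 0.04 in footprints at 8 h, and nothing in the labels says that a number marks a shared culture or day. With the replicate block 32 genes were lower in RNA at 1 h, 26 higher in TE at 1 h, 7 higher in RNA at 8 h, 11 higher in the RNA difference and 9 lower in the TE difference. Over all features the block called 2008 lower in RNA at 1 h and 996 higher in TE at 1 h, against 1307 and 598 without it. It also called 665 higher in RNA at 8 h, 142 higher in the RNA difference and 106 lower in the TE difference, against 551, 61 and 90. With a block shared by RNA and footprints 24 were higher in TE at 1 h, 3 higher and 3 lower in TE at 8 h and 15 lower in the TE difference. Over all features that shared block called 683 higher in TE at 1 h, 479 higher and 352 lower in TE at 8 h and 267 lower in the TE difference.

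Leaving out each library gave 6 to 32 lower in RNA at 1 h, 5 to 12 higher in footprints at 1 h, 0 to 25 higher in TE at 1 h, 1 to 8 higher in RNA at 8 h, 4 to 7 higher and 0 to 2 lower in footprints at 8 h, 0 to 1 higher and 0 to 2 lower in TE at 8 h, 0 to 1 higher in the RNA difference, 3 to 4 higher and 0 to 3 lower in the footprint difference, and 0 to 9 lower in the TE difference. For the genes whose values are given in a comparison, 992 refits of a gene left it on its side of the threshold, 41 passed it only there and 102 lost it. The causes of these shifts were not tested. Depth limits the footprint values: single genes had as few as 10 footprints in a library, and DMSO replicate 1 of 8 h was the shallowest.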
